A study of Mus musculus with 6 samples.

Results

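The set described here as immediate early transcription factors is 10 genes, Fos, Fosb, Jun, Junb, Jund, Egr1, Ier2, Ier3, Atf3 and Myc, chosen by gene symbol out of the 18720 rows of each liver table. The word factors is the name of the set, which also holds Ier3, described below as encoding a small protein tied to survival signalling. Each of the 10 was found once in the tables. Liver poly(A) RNA came from male C57BL/6 mice aged 1 year that were fed a high-fat diet. They were injected intraperitoneally 2 times a week for 12 weeks with R159, a compound known only by this code name, or with vehicle. There were 3 R159 libraries and 3 vehicle libraries. All mice had the high-fat diet, so nothing below compares diets, and the labels do not say that each library came from a separate mouse; p-values therefore measure the spread between these libraries, which may in part be technical.

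Immediate early genes are transcribed within minutes of a stimulus, without new protein synthesis, and their mRNAs are short-lived. Growth factors and cytokines reach them through the ERK, JNK and p38 kinases, which act on factors bound to serum response and cyclic AMP response elements. FOS and JUN proteins pair into the AP-1 transcription factor, and in liver this programme is best known from the hours after partial hepatectomy, when interleukin-6 family cytokines and growth factors prime hepatocytes to divide. The series title places R159 on a branch of signalling from gp130, the receptor subunit shared by those cytokines, and drug was compared with vehicle to see which mRNAs of the liver changed.

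Of the 10 genes, 1, Egr1, was called lower in R159 livers and 0 were called higher, where 14.2% and 12.8% of the 16594 genes tested were called lower and higher, 27% in all (limma adjusted p under 0.05, Benjamini-Hochberg over all genes tested). In 8 of the 10 the fold change lay below 0, with a median log2 fold change of -0.61 against 0.00069 over all genes tested. Jun lay just outside the threshold. Fos, Fosb, Junb, Jund, Ier2, Ier3, Atf3 and Myc overlapped between the groups and were not called. Of the 10, 3 had an unadjusted p under 0.05, where 41.5% of all genes did. Values below are normalised estimated counts, that is, reads per gene after division by a factor for each library, and log2 fold changes are R159 minus vehicle on the log2(value + 1) scale. The log2 fold change fell with transcript length across 11019 coding genes (Spearman's rho = -0.497, taken over genes, which do not count as replicates). Each gene is therefore also set beside genes within 1.1-fold of its length. Their median log2 fold change was 0.021 for Fos, -0.28 for Fosb, 0.13 for Junb and 0.19 for Jund. It was 0.24 for Ier2, 0.064 for Atf3 and -0.018 for Myc, and the values for Egr1, Jun and Ier3 are given below.

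**Figure D1:**
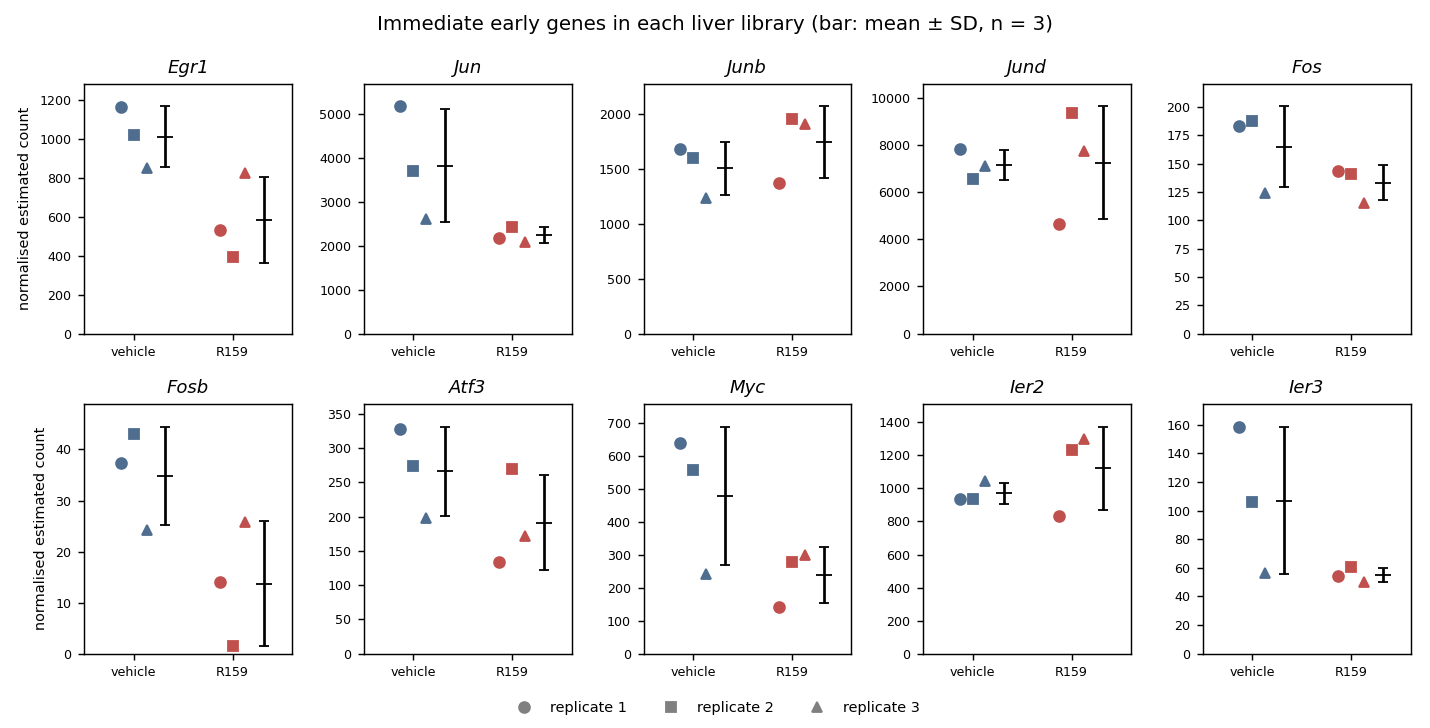
Normalised estimated count (y axis, from 0) of each of the 10 genes in the 3 vehicle (blue) and 3 R159 (red) libraries, with the mean ± SD of each group in black. For Egr1 and Jun all R159 points lie under all vehicle points, while for the other 8 genes the groups overlap.

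Jun came closest to the threshold among the AP-1 genes, Fos encodes its classical partner, and ATF3 can pair with it. The promoters of Jun, Fos and Atf3 are therefore shown. They are the 250 bases before the start site in RefSeq (GRCm38.p6, Jun at chr4:95052223-95052472, minus strand, Fos at chr12:85473640-85473889, plus strand, and Atf3 at chr1:191183334-191183583, minus strand). Capitals mark matches to the motifs searched.
Jun: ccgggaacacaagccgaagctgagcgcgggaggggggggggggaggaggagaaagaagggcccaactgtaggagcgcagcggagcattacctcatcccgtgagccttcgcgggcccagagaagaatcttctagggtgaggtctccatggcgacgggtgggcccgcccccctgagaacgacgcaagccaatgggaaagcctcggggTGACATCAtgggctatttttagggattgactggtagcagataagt
Fos: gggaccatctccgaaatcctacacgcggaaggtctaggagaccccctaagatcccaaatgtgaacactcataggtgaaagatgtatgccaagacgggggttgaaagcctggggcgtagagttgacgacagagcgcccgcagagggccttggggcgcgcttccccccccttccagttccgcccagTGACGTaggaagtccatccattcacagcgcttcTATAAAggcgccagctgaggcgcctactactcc
Atf3: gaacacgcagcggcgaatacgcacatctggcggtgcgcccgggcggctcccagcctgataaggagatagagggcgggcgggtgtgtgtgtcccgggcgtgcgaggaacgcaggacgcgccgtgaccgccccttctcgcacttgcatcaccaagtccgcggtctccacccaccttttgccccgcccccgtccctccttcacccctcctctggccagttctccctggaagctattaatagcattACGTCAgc
The capitals in Jun are TGACATCA, a match to TGACNTCA 45 to 38 bases before the start. In Fos they are TGACGT, the core of a cyclic AMP response element, 66 to 61 bases before the start, and TATAAA, 33 to 28 bases before the start. In Atf3 they are TGACGT on the opposite strand, 8 to 3 bases before the start. Of 32851 such windows of RefSeq, 7.49% held TGACNTCA, 6.47% TGACGT and 12.4% TATAAA on either strand; TGACGT and TGACNTCA can overlap. The search also covered TGANTCA (6.75% of windows), GCGNGGGCG (4.70%), CACGTG (6.02%), TTCNNNGAA (7.02%) and the serum response element core (1.47%). Entries were found for 7 of the 10 genes and not for Egr1, Ier2 and Myc. The serum response element core was matched in 0 of the 7. Elements farther than 250 bases upstream lie outside the window, so a gene without a match here may still have one. Fosb held GCGGGGGCG 50 to 42 bases before the start, and in Junb, Jund and Ier3 none of these letters was matched in this window. TGACGT was added to the search after the sequences were seen.

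EGR1 is a zinc finger factor that ERK signalling switches on through serum response factor. Egr1 stood at 1162, 1018 and 851 in vehicle replicates 1 to 3 and at 533, 394 and 825 in R159 replicates 1 to 3. The groups did not overlap, but R159 replicate 3 came within a few percent of vehicle replicate 3. The mean was 1010 ± 155 in vehicle and 584 ± 220 in R159 (SD, n = 3), a log2 fold change of -0.84 (SE 0.27, limma adjusted p = 0.0457). Its transcript of 4484 nt is long, and of 1272 genes of like length 31.1% were called lower, with a median log2 fold change of -0.37. With the length trend removed the value was -0.49 and the call was lost (limma adjusted p = 0.224). The call was also lost without R159 replicate 1 (-0.81, adjusted p = 0.0823), R159 replicate 2 (-0.59, 0.113), vehicle replicate 1 (-0.74, 0.14), vehicle replicate 2 (-0.83, 0.121) and vehicle replicate 3 (-0.96, 0.0741), and it held without R159 replicate 3 (-1.13, 0.0159).

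JUN is the AP-1 subunit that is activated by JNK and can promote its own transcription. Jun stood at 5172, 3692 and 2599 in vehicle replicates 1 to 3 and at 2185, 2434 and 2091 in R159. All R159 libraries lay under all vehicle libraries, and the R159 libraries were close to each other. The log2 fold change was -0.72 (SE 0.24, 95% interval -1.25 to -0.19), just outside the threshold (limma adjusted p = 0.0501). Without vehicle replicate 3, the lowest vehicle library, it was -0.97 and called (adjusted p = 0.0254), and without vehicle replicate 1, the highest, it was -0.47 (adjusted p = 0.158). Genes of like length to its 3189 nt had a median of -0.20, and with the length trend removed Jun gave -0.53 (limma adjusted p = 0.154). Egr1 and Jun were thus the 2 genes of 10 whose R159 libraries all lay lower, where 23.6% of all genes tested did so; 0 of 10 had all R159 libraries higher, against 22.5% of all genes, which makes 46.2% for either direction. An antisense gene, Junos, overlaps Jun; it stood at 28.6 ± 7.40 in vehicle and 26.6 ± 12.0 in R159 and so lay far under Jun.

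The relatives of Jun overlapped between the groups. JUND, the JUN protein most prominent in resting cells, restrains growth in many of them. Jund stood at 7808, 6556 and 7108 in vehicle and at 4629, 9344 and 7745 in R159. The R159 libraries spanned the vehicle ones on both sides, and the log2 fold change was -0.04 (95% interval -0.60 to 0.52, limma adjusted p = 0.918). JUNB, which often opposes JUN in the control of division, was measured through Junb at 1683, 1602 and 1231 in vehicle and 1370, 1958 and 1906 in R159. Its log2 fold change of 0.21 (95% interval -0.24 to 0.66) was not called (limma adjusted p = 0.458). Prdx2, a peroxiredoxin gene on the opposite strand that overlaps Junb, was higher in R159 (9565 ± 2164 against 5284 ± 675, limma adjusted p = 0.015); the part of its reads in the Junb values was not tested.

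The FOS genes were much lower in level. FOS cannot pair with itself and needs a JUN partner. Fos stood at 184, 187 and 124 in vehicle and at 143, 141 and 115 in R159. Vehicle replicate 3 lay among the R159 libraries, and the log2 fold change of -0.29 (95% interval -0.91 to 0.33) was not called (limma adjusted p = 0.45). FOSB is a close relative of FOS that is often induced with it. Fosb stood at 37.4, 43.0 and 24.3 in vehicle and at 14.1, 1.44 and 25.7 in R159. These are few reads, 1 to 59 estimated reads a library, and R159 replicate 2 held 1. The log2 fold change of -1.81 (SE 0.87, limma adjusted p = 0.149) depended on the pseudocount and on R159 replicate 2, and ranged from -2.53 to -0.80 over the alternatives tried.

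**Figure D2:**
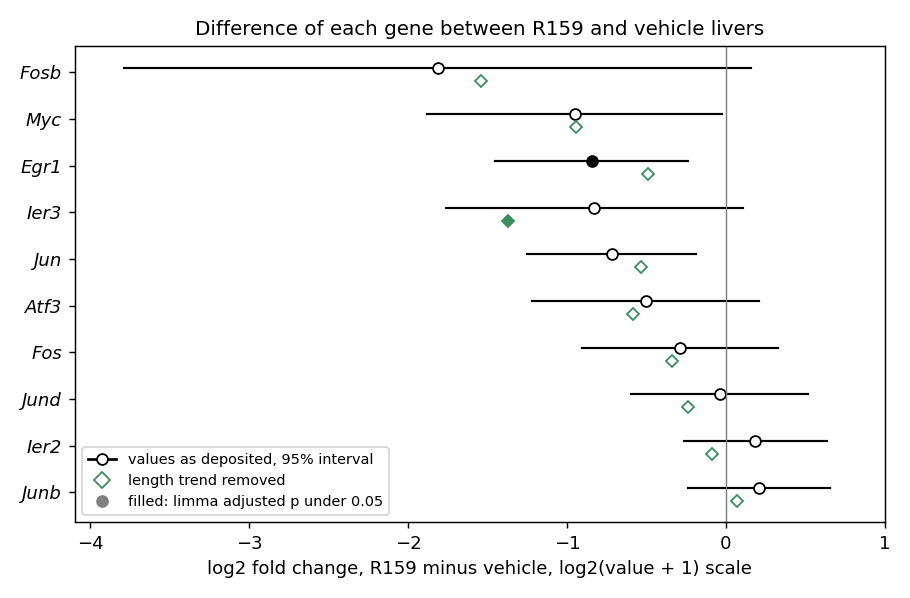
Log2 fold change, R159 minus vehicle, of each gene (circles, with limma's 95% interval as lines) and the same with the length trend removed (diamonds); filled symbols have limma adjusted p under 0.05. Egr1 is filled for the values as deposited and Ier3 with the length trend removed.

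ATF3, a stress-induced factor of the ATF family, mostly represses its targets and can pair with JUN. Atf3 stood at 327, 273 and 198 in vehicle and 133, 269 and 172 in R159, with the groups overlapping. The log2 fold change was -0.51 (95% interval -1.22 to 0.21, limma adjusted p = 0.258). MYC drives ribosome production, metabolism and division together with its partner MAX. Myc stood at 639, 558 and 241 in vehicle and 142, 277 and 300 in R159. Vehicle replicates 1 and 2 were well above every R159 library, while vehicle replicate 3 lay among them. The mean was 480 ± 210 in vehicle and 240 ± 85.6 in R159, and the log2 fold change of -0.95 (SE 0.41) was not called (limma adjusted p = 0.114). Without vehicle replicate 3 it was -1.39 and called (adjusted p = 0.0392).

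IER3 is a small protein tied to survival signalling by ERK and NF-kB. Ier3 stood at 158.6, 106 and 56.1 in vehicle and 54.2, 60.4 and 50.2 in R159. The R159 libraries were narrow, and vehicle replicate 3 fell inside their range. Its log2 fold change of -0.83 (SE 0.41) was not called (limma adjusted p = 0.162). Its transcript of 1131 nt is short, and 388 genes of like length had a median log2 fold change of 0.54, with 0.773% of them called lower. With the length trend removed Ier3 gave -1.37 and was called (limma adjusted p = 0.045), the 1 gene of the 10 called in that setting, where 8.78% of 13491 genes were called lower, 9.95% higher and 18.7% in all. IER2 is a nuclear protein induced by growth factors. Ier2 stood at 933, 934 and 1043 in vehicle and 836, 1234 and 1299 in R159, a log2 fold change of 0.19 (95% interval -0.26 to 0.64) that was not called (limma adjusted p = 0.51) and was -0.09 with the length trend removed.

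Vehicle livers differed among themselves in these genes. Vehicle replicate 3 was the lowest vehicle library in 8 of the 10 genes and vehicle replicate 1 the highest in 7, where replicate 3 was lowest in 34.9% and replicate 1 highest in 34.1% of all genes tested. Vehicle replicates 1 and 2 each lay above every R159 library in 7 of the 10 genes, and vehicle replicate 3 in 2, Egr1 and Jun. Over all genes tested the 3 vehicle libraries lay above every R159 library about equally often (32.1%, 32.7% and 33.3%). The ratio of highest to lowest vehicle library was 2.83 for Ier3, 2.65 for Myc and 1.99 for Jun, and 1.12 for Ier2. On the log2 scale that range was 0.66 at the median of the 10 genes and 0.30 over 12002 genes with a mean of at least 100. Within R159 the corresponding medians were 0.82 and 0.57, and the ratio was 1.16 for Jun and 1.202 for Ier3. The 10 genes include Fosb and Ier3, whose means over all libraries lay under 100, so the 2 sets are not alike in level.

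**Figure D3:**
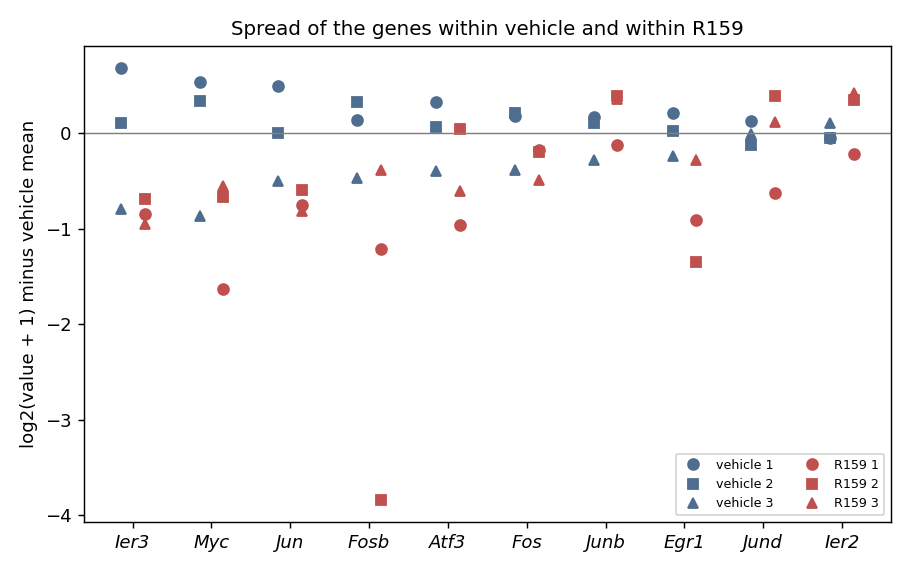
Each library's log2(value + 1) minus the vehicle mean, for vehicle (blue) and R159 (red) libraries; symbols give the replicate. Vehicle replicate 3 (blue triangles) lies lowest among vehicle libraries in 8 of the 10 genes, and the R159 outlier of Fosb is replicate 2.

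Markers of other liver cells differed between the same libraries. For the counts below, 12.8% of all genes tested were called higher and 14.2% lower. Hepatocyte markers were high in every library and summed to 4748700 to 6859100 in vehicle and 5589800 to 9295900 in R159. All 12 were tested, with 2 called lower and 0 higher, but 7 fold changes lay above 0 and the list median was 0.32. With the length trend removed 0 of the 12 were called. T and NK cell markers (9 of 10 tested, 0 called) summed to 620, 381 and 186 in vehicle replicates 1 to 3 and to 240, 666 and 495 in R159. Neutrophil markers (8 of 10 tested, 0 called, Ly6g at 0) summed to 541, 531 and 241 in vehicle and 444, 735 and 1379 in R159. Cholangiocyte markers went both ways, with 2 of 8 tested lower and 1 higher. Their sum ranged from 53385 to 96489 in vehicle and from 26138 to 50103 in R159, but it was made up mostly of Krt8 and Krt18, keratin genes that hepatocytes also express (49320 and 33290 in vehicle replicate 1). Krt7, a keratin gene of bile ducts, was higher in R159 (1.32, limma adjusted p = 0.0251), and Krt19 gave 0.98 (0.182). These were the only 2 of the 8 tested with a fold change above 0. The other 6 lay below 0, and the list median was -0.84. Spp1, one of the 6 and named after its values were seen, gave -1.26 (limma adjusted p = 0.0541), with every R159 library under every vehicle library. With the length trend removed 4 markers were called lower and 1 higher. Kupffer and macrophage markers (3 of 12 lower, 0 higher) ranged from 23950 to 35795 in vehicle and 19389 to 25512 in R159. Cd5l, Adgre1 and Csf1r were the 3 called lower. Timd4 (2.09, limma adjusted p = 0.0872) and Marco (3.07, 0.0619), genes of resident Kupffer cells, were not called but had every R159 library above every vehicle library. Cd163 (2.45, limma adjusted p = 0.13) was as far above 0 but overlapped between the groups. In vehicle replicates 1 to 3 Timd4 stood at 10.8, 118 and 147, Marco at 20.8, 397 and 622, and Cd163 at 4.98, 106 and 240. These fold changes thus rest in part on vehicle replicate 1. Clec4f (0.20, limma adjusted p = 0.66) and Vsig4 (0.25, 0.617) overlapped between the groups with small changes, and Cd5l gave -1.11. Of the 12 fold changes 5 lay above 0 and 7 below. Stellate cell markers (4 of 10 lower) ranged from 19658 to 35018 in vehicle and 11583 to 25597 in R159, B and plasma cell markers gave 2 of 10 higher, and endothelial markers 1 higher and 1 lower of 10. Erythroid markers (6 of 8 higher) summed to 12957 to 21877 in vehicle and 40878 to 60079 in R159. With the length trend removed 9.95% of all genes were called higher and 8.78% lower. In that setting 2 of 8 erythroid markers were higher, 5 of 12 Kupffer and macrophage markers lower and 2 of 10 stellate cell markers lower. B and plasma cell markers then gave 1 of 8 higher, and endothelial markers 1 of 10 higher and 0 lower. Of 13 mitochondrially encoded genes 5 were called higher and 0 lower, but 0 higher and 2 lower with the length trend removed. All genes with a symbol starting in mt-, a wider set, took 5.01% to 7.43% of the values in vehicle and 8.42% to 13.6% in R159. In bulk tissue fewer cells of a type and less RNA per cell cannot be told apart, and the part of these cells and of the mitochondrial share in the immediate early values was not tested.

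The 3 genes most like Fos over the 6 libraries, among 11162 named genes with a mean of at least 100, were Icam1 (Pearson's r = 0.996), an adhesion molecule for leukocytes, Hk3 (0.995), a hexokinase, and Slc11a1 (0.989), a metal transporter of phagocytes. Most like Myc were Apbb1ip (0.991), an adaptor of integrin activation, Cotl1 (0.985), an actin-binding protein, and Jpt1 (0.982). With 6 libraries and so many genes, values this high are a description of these libraries. None of these 6 genes was called between the groups (limma adjusted p from 0.0768 for Cotl1 to 0.42 for Slc11a1).

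Per kilobase of transcript the JUN genes far exceeded the FOS genes. In vehicle the order of levels per kb was Jund (4291 ± 376), Jun (1198 ± 405), Junb (832 ± 133), Ier2 (637 ± 41.5), Egr1 (225 ± 34.7), Myc (205 ± 90.002), Atf3 (134 ± 32.8), Ier3 (94.4 ± 45.3), Fos (78.3 ± 16.9) and Fosb (9.23 ± 2.54). Only the steps from Jund to Jun, Ier2 to Egr1 and Fos to Fosb were free of overlap between the libraries of neighbouring genes. In R159 Jund was again first (4340 ± 1438 per kb), followed by Junb (964 ± 180.0), Ier2 (738 ± 165) and Jun (701 ± 55.6), and these last 3 overlapped. Jun, Junb and Jund together made up 98.3% to 99.1% of the summed level per kb of the 5 JUN and FOS genes in every library. Jun made up 22.4%, 19.4% and 14.2% of the JUN genes in vehicle and 16.2%, 10.2% and 10.3% in R159. The ratio of Jund to Jun per kb was 2.89, 3.39 and 5.23 in vehicle and 4.05, 7.34 and 7.08 in R159, with overlap between the groups (exact permutation test, two-sided p = 0.2, 0.42 after Benjamini-Hochberg adjustment over 7 such values; 0.1 is the smallest p that 3 against 3 allows).

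**Figure D4:**
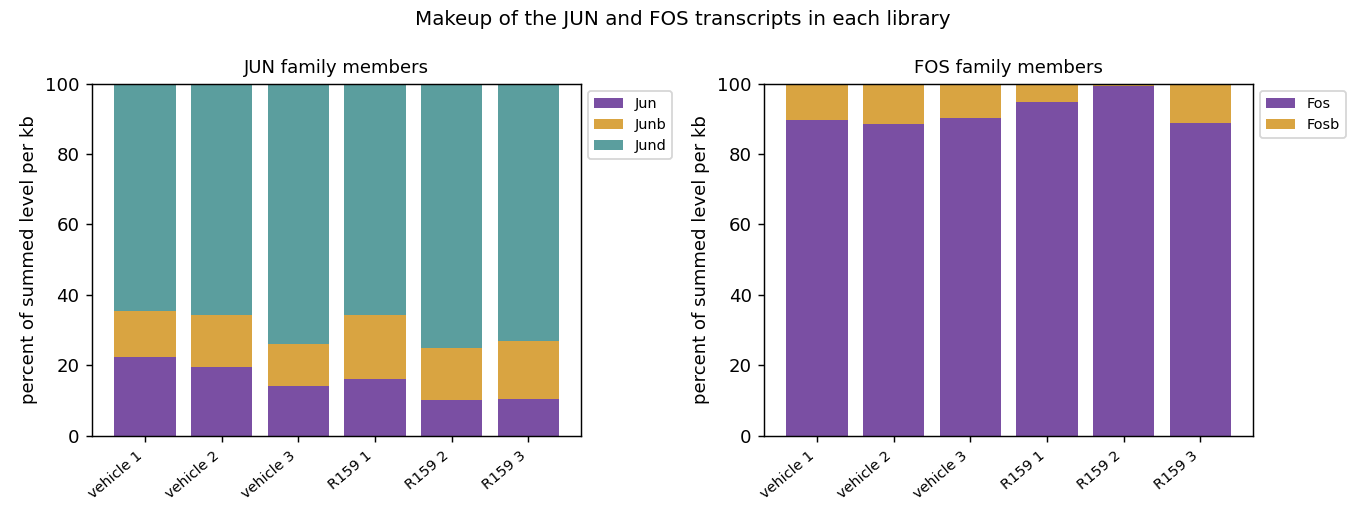
Share (percent) of each gene in the summed level per kb of Jun, Junb and Jund (left) and of Fos and Fosb (right), 1 stacked bar per library. Jund makes up 64.7% to 75.2% of the JUN bars, and Fos 88.7% to 99.4% of the FOS bars.

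Other immediate early genes went both ways. Of 27 tested, 2 were called higher and 2 lower, with a median log2 fold change of 0.09, where 12.8% and 14.2% of all genes were called. Zfp36, whose protein speeds the decay of AU-rich mRNAs, stood at 6082, 4864 and 4886 in vehicle and 10178, 6451 and 9950 in R159 (log2 fold change 0.73, limma adjusted p = 0.0323). Nfil3, a repressor of the circadian system, rose by 0.79 (limma adjusted p = 0.0336). Klf6, a zinc finger factor of injury responses, stood at 1511, 1577 and 1018 in vehicle and 597, 812 and 675 in R159 (-0.96, limma adjusted p = 0.0134), and Trib1, a pseudokinase that regulates C/EBP proteins, gave -0.49 (0.0412). After removal of the length trend 2 were higher and 0 lower, but the genes differed in part: Zfp36 was called (adjusted p = 0.0261), Nfil3 was not (0.0764), and Ppp1r15a, named after its values were seen, was (0.0499, against 0.108 before). The count of higher genes was 1 without any single R159 library and 0 without any single vehicle library. The count of lower genes was 1 without R159 replicate 1 or vehicle replicates 1 or 3, and 0 without vehicle replicate 2.

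**Figure D5:**
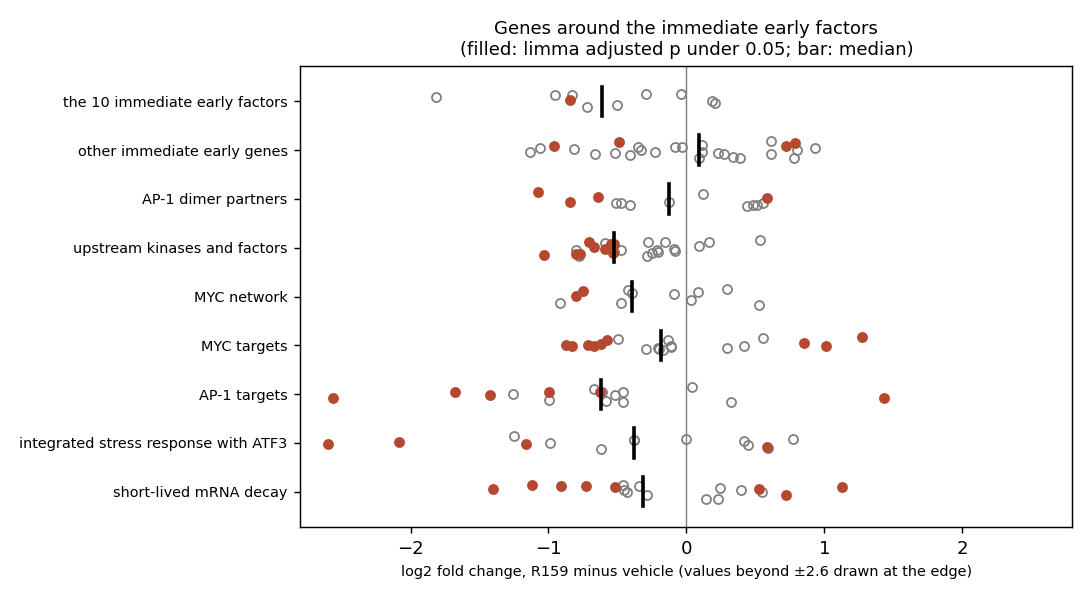
Log2 fold change, R159 minus vehicle, of each tested gene (points) in the 10 immediate early factors and 8 related lists, with list medians as bars; filled points have limma adjusted p under 0.05 and values beyond 2.6 are drawn at the edge. The list of upstream kinases and factors has 9 filled points, all below 0, and the 10 factors have 1.

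Upstream kinases and factors lay lower as a list, with 9 of 25 called lower, 0 called higher and a median log2 fold change of -0.52. Over all genes tested 14.2% were called lower and 12.8% higher. Not every gene of the list switches these genes on, since Nab1 and Nab2 encode corepressors of EGR1. Nab1, named after its values were seen, was among the 9 called lower (-0.53, limma adjusted p = 0.0306). Of genes near 3782 nt and 4484 nt, lengths close to and above this list's median of 3874 nt, 25.2% and 31.1% were called lower. Rps6ka3, an ERK-activated kinase (RSK2) that phosphorylates CREB, stood at 668, 588 and 584 in vehicle and 312, 259 and 328 in R159 (-1.03, limma adjusted p = 0.00678). Mapk14, which encodes p38 alpha, stood at 4094, 4255 and 4696 in vehicle and 2736, 2125 and 2657 in R159 (-0.80, limma adjusted p = 0.00837). With the length trend removed the list median was -0.15 and 3 of 25 were lower, against 8.78% of all genes; Mapk14 kept its call (limma adjusted p = 0.019) and Rps6ka3 did not (0.0802). The count of 9 fell to 5 without R159 replicate 2, to 4, 3 and 3 without vehicle replicates 1, 2 and 3, and to 3 without the empirical Bayes trend; 1 gene was called higher without R159 replicate 1.

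Among 13 tested partners that pair with AP-1 proteins, 3 were called lower and 1 higher, with a median of -0.13. The shares over all genes tested were 14.2% lower and 12.8% higher. Atf2, a JUN partner, stood at 1302, 1274 and 1620 in vehicle and 811, 687 and 831 in R159 (log2 fold change -0.85, limma adjusted p = 0.00938). The small MAF genes Mafk (-0.64, limma adjusted p = 0.0226) and Maff (-1.07, 0.0365; named after its values were seen) were the other two called lower. Atf4, the main factor of the integrated stress response, rose by 0.58 (limma adjusted p = 0.0287). After removal of the length trend Atf2 and Maff were called lower (adjusted p = 0.0337 and 0.0289) and Mafk was not (0.0573). Atf4 was then not called (0.41, adjusted p = 0.102), and the 1 higher gene was Mafg, another small MAF gene named after its values were seen (0.88, adjusted p = 0.0124, against 0.48 and 0.139 before). The lower count was 1 without any single vehicle library, and the higher count was 0 without R159 replicate 2 or vehicle replicates 1 or 2.

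Genes known as AP-1 targets gave 5 of 16 lower and 1 higher, with a median log2 fold change of -0.62. Over all genes tested 14.2% were called lower and 12.8% higher. With the length trend removed 4 were lower and 1 higher, against 8.78% and 9.95% of all genes. Ccnd1, the cyclin of entry into the cell cycle, stood at 3613, 3894 and 3481 in vehicle and 1487, 1167 and 858 in R159 (-1.68, limma adjusted p = 0.00312). Cdkn1a, which encodes the cell cycle inhibitor p21, stood at 1561, 1177 and 700 in vehicle and 444, 329 and 452 in R159 (-1.43, limma adjusted p = 0.00948). Its vehicle libraries stood in the same order as those of Jun, but 3 libraries allow few orders and a link between these genes was not tested. Vegfa, the vascular growth factor, was the gene called higher, at 3225, 3312 and 4013 in vehicle and 12618, 7478 and 8986 in R159 (1.44, limma adjusted p = 0.00402). Mmp13, Mmp14 and Cd44, named after their values were seen, were also lower (log2 fold changes of -2.56, -0.62 and -0.996). Of these 5 lower genes, Mmp14 (adjusted p = 0.107) and Cd44 (0.212) lost their calls with the length trend removed, and Spp1, also named after its values were seen, was called in that setting (0.0279, against 0.0541 before). The count of lower genes was 2 without vehicle replicate 1 and 3 without vehicle replicate 2. Most of these genes also answer to other factors.

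Around MYC, 2 of 11 network genes were lower and 0 higher, with a median log2 fold change of -0.40. Among all genes tested 14.2% were called lower and 12.8% higher. Mnt, a MAX partner that opposes MYC, stood at 757, 887 and 968 in vehicle and 552, 502 and 446 in R159 (-0.80, limma adjusted p = 0.0139), and Mycl, a MYC relative, gave -0.75 (0.0323). Max itself gave -0.09 (limma adjusted p = 0.68). None of the 11 was called with the length trend removed. The count of lower genes was 1 without vehicle replicate 1 and 0 without vehicle replicates 2 or 3, and 1 gene was called higher without R159 replicate 3. Of 20 MYC targets, 3 were higher and 6 lower, with a median of -0.18, beside the same 12.8% and 14.2% of all genes. Hspe1, a mitochondrial chaperonin gene with a short transcript, rose by 1.27 (0.39 with the length trend removed) and Ppan, a ribosome assembly gene, by 1.01 (limma adjusted p = 0.00409 and 0.0129), while the helicase gene Ddx21 gave -0.83 and the transferrin receptor gene Tfrc -0.67 (0.00744 and 0.0237). The length trend removed, 3 were higher and 1 lower; Ddx21 (-0.45, adjusted p = 0.0779) and Tfrc (-0.28, 0.216) lost their calls, and the lower gene was the chaperonin gene Hspd1, named after its values were seen (-0.59, adjusted p = 0.0252). The count of lower targets was 1 without R159 replicate 2 or any single vehicle library. The count of higher targets was 6 without R159 replicate 1 and 1 without vehicle replicate 3.

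Of 14 genes of the integrated stress response, in which ATF3 acts, 3 were lower and 1, Atf4, was higher. Their median log2 fold change was -0.38, and 14.2% of all genes tested were called lower and 12.8% higher. Eif2ak3, which encodes the sensor kinase PERK, stood at 1329, 1457 and 1440 in vehicle and 713, 591 and 585 in R159 (-1.17, limma adjusted p = 0.00375). Psat1, an enzyme of serine synthesis named after its values were seen, gave -2.08 (limma adjusted p = 0.00799). The third, the cystine transporter gene Slc7a11, stood at 20.9, 117 and 48.7 in vehicle and at 0, 1.44 and 0 in R159. These 3 were also lower with the length trend removed, while Atf4 was then not called (limma adjusted p = 0.102). Without R159 replicate 3 the higher count was 2, and without R159 replicate 2 or vehicle replicates 1 or 2 it was 0.

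Because immediate early mRNAs are short-lived, the genes of mRNA decay were also examined. Of these, 3 of 18 were higher and 5 lower, where 12.8% and 14.2% of all genes tested were called. The median log2 fold change of the list was -0.32. Zfp36, given above, and Pan2, a subunit of a deadenylase (1.13, limma adjusted p = 0.00727), were among the higher ones. Cnot1, the scaffold of the CCR4-NOT deadenylase, stood at 4651, 5056 and 6352 in vehicle and 2726, 1433 and 2057 in R159 (-1.41, limma adjusted p = 0.00547). Dcp2, the decapping enzyme, gave -1.12 (limma adjusted p = 0.0065). Removing the length trend gave 5 higher and 2 lower and a median of 0.03; Zfp36, Pan2, Cnot1 and Dcp2 were called in both settings, and Hnrnpd and Pan3, named after their values were seen, were called higher in that setting alone (adjusted p = 0.0286 and 0.006, against 0.113 and 0.0572 before). The count of higher genes was 1 without any single vehicle library, and that of lower genes was 3 without vehicle replicates 2 or 3.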

How the data were processed

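The 6 liver libraries, 3 of R159 and 3 of vehicle, were prepared with a stranded poly(A) kit and sequenced as paired-end reads of 50 bases, per the labels' protocols. Read processing, per the submitters' processing notes, involved STAR 2.7.8a, cutadapt, FastQC 0.11.9, R 4.2.3 and DESeq2, and mm39 as the build; their order and roles are not listed. The counter, annotation and strand setting: not given in the sources used here, so reads of overlapping genes cannot be told apart. The deposited values are a signal, estimated counts divided by 1 factor per library. Depth, in units of 1e6 estimated reads, was 51.3 to 55.7 in R159 and 66.0 to 76.7 in vehicle. Whole reads could not be recovered (67.5% to 75.5% of values under 200 reads came out whole, tolerance 0.02 reads), which left count models out. The 10 genes had 41 or more estimated reads in every library, except Fosb.

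Genes with a mean of at least 10 were kept (16594, all 10 factors among them) and log2(value + 1) was tested with limma 3.58.1 (R 4.3.3), using a trended empirical Bayes prior and no term but the group. Transcript length was that of the longest coding transcript of GENCODE M21, another build, given for 13491 tested genes (81.3%), and its trend was removed per library by lowess (span 0.3). In a simulation of the R159 comparison (16594 genes, of which 200 changed), limma called 60% of log2 changes of 2 and 16% of log2 changes of 1, with 9.52% of its calls false. Far more genes were called in the data than were changed in the simulation, so these shares do not carry over to the 10 factors. Exact tests used scipy 1.17.1, and figures matplotlib 3.10.9.

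The members, the lists and the tests were chosen with earlier results of these data known, and the same holds for the naming rule. That rule named the 10 factors, up to 2 called genes per direction in each list by smallest p (else the 2 of smallest p), and the 3 genes most like Fos and Myc. Alternatives were other scaling, a pseudocount of 0.5 or 8, a filter at a mean of 50 or none, no trend, sample weights, a replicate block, the length trend removed, and leaving out each library.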

Additional observations from a re-analysis of the deposited data

How the results depend on the processing

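Leaving out 1 library gave 0 to 2 called immediate early factors and 1854 to 5420 called genes in all, against 1 and 4479 with all libraries. The factors called numbered 0 with quantile normalization or without the empirical Bayes trend, and 2 with a pseudocount of 8, a mean of at least 50 or sample weights (Egr1 and Jun). With the length trend removed 2527 genes were called in all, among fewer genes tested. Egr1 lost its call in 9 of 16 alternatives (adjusted p from 0.0159 to 0.224), and Jun gained one in 5 of 16. Jund and Ier2 changed sign without a call: Jund gave 0.0925 with sample weights and -0.254 to 0.253 when 1 library was left out, above 0 without R159 replicate 1 (0.253) and vehicle replicate 1 (0.0249), and Ier2 gave -0.0872 with the length trend removed. Of 463 values of the 29 other genes named by the rule, 405 kept direction and side of the threshold, 56 lost a call, 2 gained one and 0 changed sign. A mean of at least 50 left no value for Fosb. The labels do not say that the replicate numbers pair the libraries. The correlation of deviations was -0.098, 0.031 and 0.11 for replicates 1 to 3, and -0.14 to 0.098 for unlike numbers. With 3 libraries a group these values cannot decide whether libraries were paired. With the replicate block 3945 genes were called and 1 of the factors, Jun (adjusted p = 0.0428) in place of Egr1 (0.0557). Fosb rested on 1 to 59 estimated reads a library. The causes of these shifts were not tested.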
